A study of Mus musculus with 9 samples.

Results

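The genes described here encode the laminin and collagen IV chains of basement membranes and the proteins that join or bind them. They were chosen by name: all probe sets whose gene symbol in the platform's annotation is Lama1, Lamb1, Lamc1, Col4a1, Col4a2, Nid1, Nid2, Sparc, Hspg2 or Agrn. This gave 13 probe sets of 10 genes, of 12422 probe sets and 8251 named genes measured. Total RNA of F9 embryonal carcinoma cells, a mouse tumour line used as a culture model of early endoderm, was hybridised to Affymetrix arrays, with 3 arrays per group. The groups were cells given RA, read here as retinoic acid, at 0.5 µM, cells given TSA, read here as the histone deacetylase inhibitor trichostatin A, at 0.07 µM, and cells given the ethanol vehicle. RNA of all 3 groups was taken at 24 h, DMEM is named as the medium of the vehicle cells, and the labels name no genetic change in any group. The labels do not say whether the arrays of a group came from separate cultures, so each p-value reflects the spread among these arrays alone, and that spread may be technical.

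Basement membranes are thin sheets of extracellular matrix that underlie epithelia and endoderm. Laminin trimers, each made of an α, a β and a γ chain, form one network and collagen IV protomers form another, and nidogens and heparan sulfate proteoglycans link them. In the mouse embryo the parietal endoderm lays down a thick basement membrane, Reichert's membrane, and F9 cells that differentiate towards parietal endoderm are a classical source of laminin and collagen IV.

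The deposited values were ratios to the mean of the vehicle arrays, so a probe set averages 1 in vehicle cells by construction. They show how a gene differed between groups and carry no level, so genes cannot be ranked by abundance and the cell type of the vehicle cells cannot be checked against its markers. Tests were made with limma on log2(ratio + 0.05) over all 12422 probe sets, with Benjamini-Hochberg adjustment, and a probe set was called changed at an adjusted p under 0.05. Fold changes on this scale understate the change of probe sets with very low ratios. In these bulk RNA samples, fewer cells of a type and less RNA per cell cannot be told apart.

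Some array controls differed between the groups. Array medians lay between 0.862 and 0.915 in RA cells, between 0.821 and 0.878 in TSA cells and between 0.975 and 1.02 in vehicle cells, so no treated array reached a vehicle array. The hybridisation spike-ins lay between 0.412 and 1.10 in RA cells, between 0.557 and 0.717 in TSA cells and between 0.895 and 1.05 in vehicle cells. The part of these controls in the results was not tested beyond the scaling alternatives. The value of the 3′ over the 5′ Gapdh probe sets, a usual check of RNA integrity, taken here relative to vehicle, lay between 0.922 and 1.07 in RA cells, between 0.948 and 0.985 in TSA cells and between 0.948 and 1.03 in vehicle cells. The 18S ribosomal RNA control was highest on 2 arrays, at 0.961 on RA replicate 3 and 2.40 on vehicle replicate 3. The other RA and all TSA arrays were at 0.0723 or less, and the other vehicle arrays at 0.538 and 0.0730. The median log2 change of all probe sets was -0.12 for RA against vehicle, -0.17 for TSA against vehicle and 0.05 for RA against TSA.

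None of the 13 probe sets passed the threshold for RA against vehicle (0 of 13, where 1.36% of all probe sets did), by limma. At an unadjusted p under 0.05 limma gave 6 of the 13 (12.7% of all probe sets), 5 higher (4.64%) and 1 lower (8.03%) in RA cells. For TSA against vehicle 3 of the 13 passed, all higher in TSA cells: Lama1 and both probe sets of Agrn (3.48% of all probe sets passed in either direction and 2.21% were higher). At an unadjusted p under 0.05 limma gave 5 of the 13, all higher in TSA cells (19.6% of all in either direction, 7.41% higher). For RA against TSA 1 of the 13 passed, Col4a1, which was higher in RA cells (3.91% of all passed and 1.7% were higher). At an unadjusted p under 0.05 limma gave 4 of the 13 (17.1% of all), 2 higher (8.36%) and 2 lower (8.69%) in RA cells. The median log2 change of the 13 probe sets was 0.45 for RA against vehicle, 0.31 for TSA against vehicle and -0.06 for RA against TSA, beside the medians of all probe sets given above. The comparisons of RA and of TSA with vehicle share the same vehicle arrays.

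**Figure D1:**
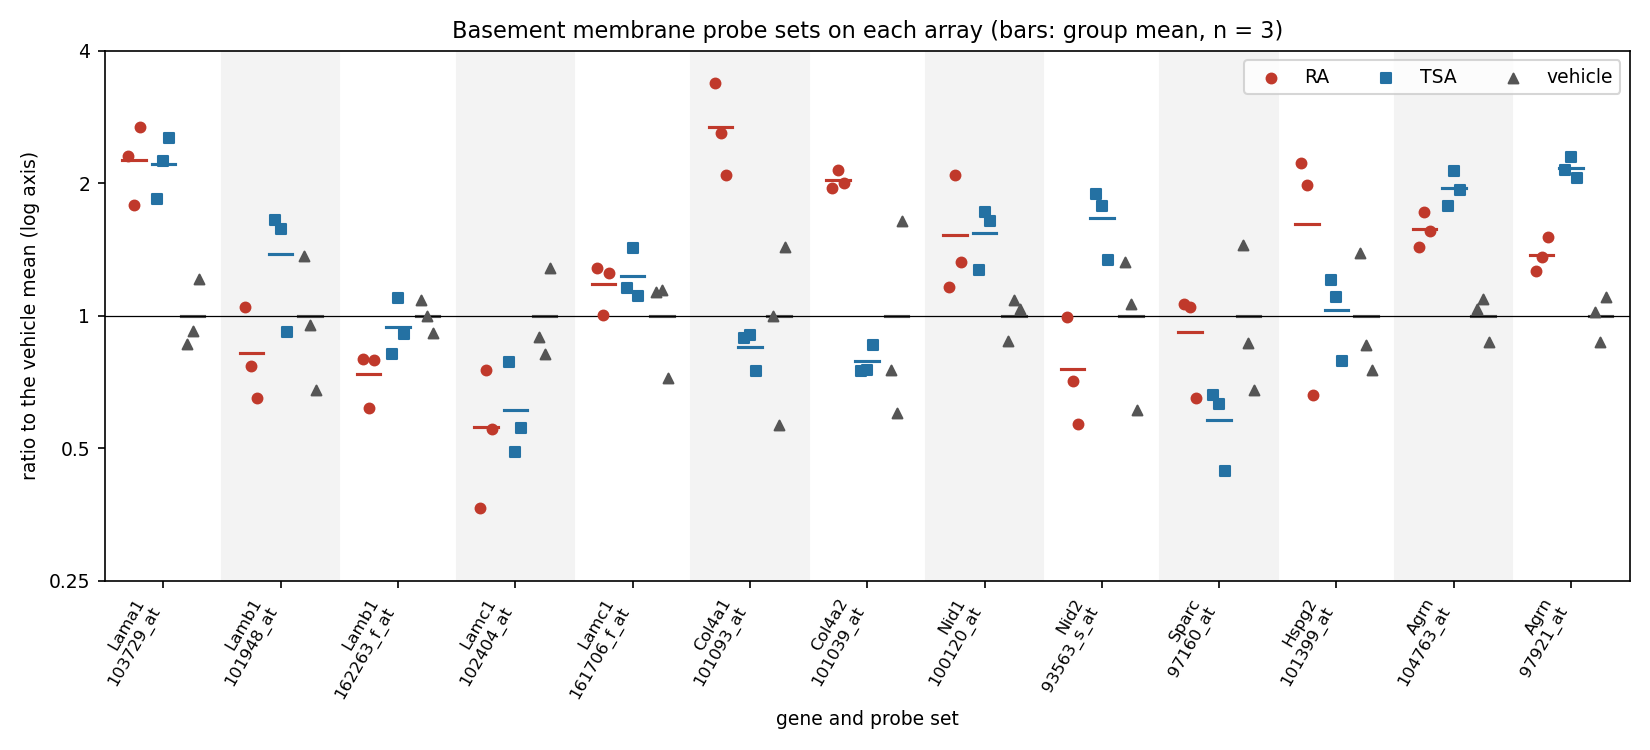
Ratio to the vehicle mean (log axis) of each of the 13 probe sets on every array, with 3 arrays each of RA, TSA and vehicle cells and a bar at each group mean. Col4a1 and Col4a2 are above 1.9 on every RA array, and Lama1 is above 1.7 on every RA and TSA array.

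Of the laminin chains, Lama1 passed the test with TSA, and no probe set of Lamb1 or Lamc1 passed in any comparison. Lama1, the α chain of the embryonic laminin trimer, had ratios of 2.30, 1.78 and 2.68 in RA cells and of 1.84, 2.25 and 2.54 in TSA cells, against 0.864, 0.925 and 1.21 in vehicle cells. Every RA and every TSA array lay above every vehicle array, and the RA and TSA arrays overlapped. Lama1 averaged 2.26 ± 0.451 in RA cells, 2.21 ± 0.351 in TSA cells and 1 ± 0.186 in vehicle cells (SD, n = 3 each). It rose with TSA by 1.11 on the log2 scale (SE 0.23, limma adjusted p = 0.0397), which is 1.28 above the median change of all probe sets. With RA its log2 change was 1.13 (95% interval 0.60 to 1.66, limma adjusted p = 0.0646), and RA and TSA cells differed by 0.02 (interval -0.51 to 0.56). Before adjustment the limma p was 0.00107 with RA and 0.00122 with TSA. The adjustment was made within each comparison, and fewer of all probe sets passed with RA (1.36%) than with TSA (3.48%). The call with TSA and not with RA thus comes from the adjustment. The TSA call held in 8 of 19 alternatives. Without both arrays of high 18S signal it held at 1.25 (adjusted p = 0.0409), and the RA change was 1.14 (adjusted p = 0.112). The TSA call also held without vehicle replicate 3 and was lost without any other single array, with adjusted p between 0.0508 (without RA replicate 3) and 0.155 (without TSA replicate 2).

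Lamb1, the β1 chain, was read by a pair of probe sets. Its 101948_at had ratios of 1.05, 0.771 and 0.652 in RA cells and of 1.65, 1.58 and 0.917 in TSA cells, against 1.37, 0.954 and 0.677 in vehicle cells. The 3 groups overlapped, and the vehicle arrays alone spanned most of the range. The log2 change was -0.24 with RA (limma adjusted p = 0.825) and 0.46 with TSA (adjusted p = 0.497). The TSA value was 0.22 without vehicle replicate 3 or without both arrays of high 18S signal, 0.70 without vehicle replicate 1 and 0.72 without TSA replicate 3. The second Lamb1 probe set, 162263_f_at, had 0.800, 0.619 and 0.794 in RA cells and 0.817, 1.10 and 0.910 in TSA cells, against 1.09, 0.999 and 0.912 in vehicle cells. All its RA arrays lay below all its vehicle arrays, by -0.42 on the log2 scale (limma adjusted p = 0.427). Its TSA change of -0.09 turned to 0.06 under quantile normalization and to 0.11 under centring on array medians.

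Lamc1, the γ1 chain, gave values of opposite sign from its probe sets. On 102404_at the ratios were 0.366, 0.755 and 0.554 in RA cells and 0.788, 0.490 and 0.557 in TSA cells, against 0.895, 0.820 and 1.28 in vehicle cells. No RA or TSA array reached the lowest vehicle array. The log2 change was -0.81 with RA (interval -1.51 to -0.12, limma adjusted p = 0.309) and -0.67 with TSA (adjusted p = 0.273). On 161706_f_at the ratios were 1.29, 1.01 and 1.25 in RA cells and 1.15, 1.43 and 1.11 in TSA cells, against 1.13, 1.15 and 0.722 in vehicle cells. These groups overlapped, with log2 changes of 0.25 with RA (limma adjusted p = 0.724) and 0.31 with TSA (adjusted p = 0.521). A direction for Lamc1 cannot be given from this pair.

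Setting the chains against each other on the same array removes any scaling of that array. Lama1 minus Lamc1 on the log2 scale, with each gene's probe sets averaged, was 1.42 ± 0.38 in RA cells, 1.30 ± 0.36 in TSA cells and 0.01 ± 0.27 in vehicle cells (SD, n = 3 each). Lama1 minus Lamb1 was 1.47 ± 0.31 in RA cells, 0.94 ± 0.43 in TSA cells and 0.01 ± 0.54 in vehicle cells. In these comparisons with vehicle no array of the treated cells overlapped a vehicle array, and the exact two-sided permutation test gave its smallest possible p of 0.1 (0.3 adjusted over the 12 such tests). With 3 arrays against 3 this test cannot pass 0.05. Lamb1 minus Lamc1 was -0.05 ± 0.37 in RA cells, 0.36 ± 0.22 in TSA cells and -0.00 ± 0.27 in vehicle cells, with p between 0.2 and 0.9 by the same exact test. Since the Lamc1 probe sets differ in sign, these values depend on their averaging. With probe sets that have f in their suffix left out, a choice made after seeing the data, the difference from vehicle in Lamb1 minus Lamc1 was 0.58 with RA (exact p = 0.5), against -0.05 with all probe sets, and 1.12 with TSA (exact p = 0.1), against 0.36. That in Lama1 minus Lamb1 was 1.37 with RA (exact p = 0.1) and 0.65 with TSA (exact p = 0.4), and that in Lama1 minus Lamc1 was 1.94 and 1.77 with RA and TSA (exact p = 0.1 each).

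**Figure D2:**
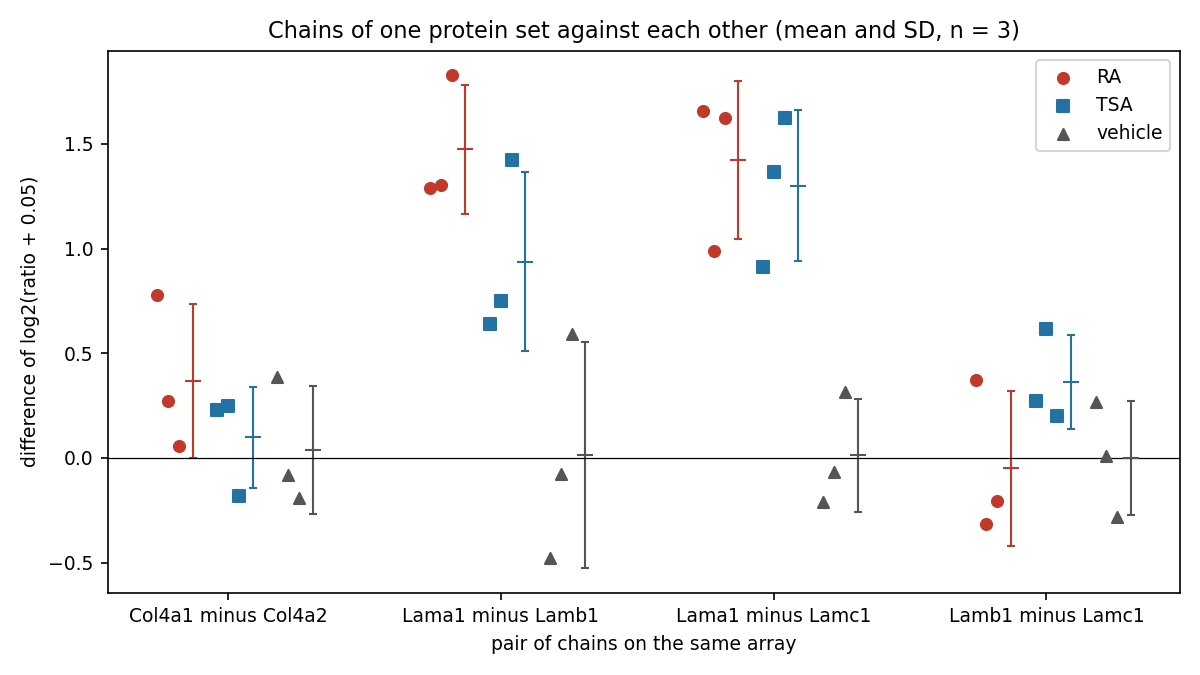
Difference of log2(ratio + 0.05) between chains of one protein on each array, with the mean and SD beside the 3 arrays of RA, TSA and vehicle cells. Lama1 stands above Lamb1 and Lamc1 on all RA and TSA arrays, and Col4a1 minus Col4a2 overlaps between the groups.

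Col4a1 and Col4a2 were the members whose RA arrays all lay above all TSA and all vehicle arrays. Col4a1 encodes the α1 chain, and its probe set had ratios of 3.39, 2.60 and 2.09 in RA cells and of 0.889, 0.905 and 0.751 in TSA cells, against 1.00, 0.565 and 1.43 in vehicle cells. TSA and vehicle arrays overlapped each other. Col4a1 averaged 2.69 ± 0.654 in RA cells, 0.848 ± 0.0845 in TSA cells and 1 ± 0.435 in vehicle cells (SD, n = 3 each). It was higher in RA than in TSA cells by 1.59 on the log2 scale (SE 0.33, interval 0.83 to 2.34, limma adjusted p = 0.0357). Against vehicle the RA change was 1.45 (interval 0.69 to 2.20, limma adjusted p = 0.0919). The RA change against vehicle passed without vehicle replicate 3, at 1.74 (adjusted p = 0.0407). It did not pass without both arrays of high 18S signal, at 1.91 (adjusted p = 0.0643), or without vehicle replicate 2, at 1.11 (adjusted p = 0.207).

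Col4a2 encodes the α2 chain of the same protomer. Its ratios were 1.96, 2.14 and 2.00 in RA cells and 0.751, 0.755 and 0.857 in TSA cells, against 0.755, 0.601 and 1.64 in vehicle cells. The RA arrays stood together above all others, and vehicle replicate 3 stood well above the other vehicle arrays. Col4a2 averaged 2.03 ± 0.0964 in RA cells, 0.788 ± 0.0601 in TSA cells and 1 ± 0.563 in vehicle cells (SD, n = 3 each). The log2 change was 1.12 with RA against vehicle (interval 0.37 to 1.86, limma adjusted p = 0.174) and 1.32 for RA against TSA (interval 0.57 to 2.06, adjusted p = 0.0693). Without vehicle replicate 3, the array of highest 18S signal, these became 1.52 (adjusted p = 0.0131) and 1.32 (adjusted p = 0.00788). Without both arrays of high 18S signal the RA change was 1.53 (adjusted p = 0.0382). Both settings take out the vehicle array that stood apart for Col4a2 itself, which narrows the vehicle spread. These p-values are therefore no separate support.

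With TSA neither chain passed. The log2 change was -0.14 for Col4a1 (limma adjusted p = 0.858), which turned to 0.11 under quantile normalization and 0.06 under centring, and -0.20 for Col4a2 (adjusted p = 0.781), which turned to 0.02 under quantile normalization. Col4a1 minus Col4a2 on the same array was 0.37 ± 0.37 in RA cells, 0.10 ± 0.24 in TSA cells and 0.04 ± 0.31 in vehicle cells (exact permutation p = 0.3 for RA against vehicle). The Col4a1 call for RA against TSA held in 9 of 19 alternatives. It was lost with the replicate number as a block (adjusted p = 0.0631), and it held without both arrays of high 18S signal (adjusted p = 0.0307) and without vehicle replicate 2 or 3. It was lost without any other single array, with adjusted p between 0.0521 (without vehicle replicate 1) and 0.126 (without RA replicate 1).

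The genes for the α1 and α2 chains lie head to head on mouse chromosome 8 with annotated starts 21 bases apart. These starts cross, so the first bases of the genes overlap and the bases before each start run into the other gene. Their promoter windows therefore overlap. Windows from 250 bases before to 50 bases after the start were taken from RefSeq (GRCm38.p6) and were given for 7 of the 10 genes, in 8 windows. The Col4a1 window is chr8:11312777-11313076 on the minus strand and the Col4a2 window is chr8:11312555-11312854 on the plus strand. They are shown because both genes had this RA pattern, and capitals mark the 78 bases that the windows share, each read 5′ to 3′ on its own gene's strand.

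Col4a1: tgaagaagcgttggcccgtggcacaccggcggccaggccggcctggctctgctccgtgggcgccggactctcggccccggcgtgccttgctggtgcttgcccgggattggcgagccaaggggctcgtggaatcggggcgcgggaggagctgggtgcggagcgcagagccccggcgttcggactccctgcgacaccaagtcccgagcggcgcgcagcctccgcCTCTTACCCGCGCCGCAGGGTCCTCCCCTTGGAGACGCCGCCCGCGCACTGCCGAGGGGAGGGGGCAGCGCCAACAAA
Col4a2: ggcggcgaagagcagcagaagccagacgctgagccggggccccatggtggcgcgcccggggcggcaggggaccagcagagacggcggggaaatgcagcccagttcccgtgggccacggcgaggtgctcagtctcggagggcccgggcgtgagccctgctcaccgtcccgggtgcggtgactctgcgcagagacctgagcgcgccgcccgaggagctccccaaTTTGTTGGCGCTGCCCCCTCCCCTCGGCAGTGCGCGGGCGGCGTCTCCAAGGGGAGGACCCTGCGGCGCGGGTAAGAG

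In the windows, 5 motifs were searched on both strands, with overlapping matches counted. GGGCGG, the core of the Sp1 site, was found in 7 of the 8 windows, where 35.7% of the 32851 RefSeq mouse windows of the same length hold it. These 8 windows are not all independent, since they include a second window of Agrn. The Col4a1 match lies in the bases shared with the Col4a2 window, so that site is counted in both. CCAAT, the NF-Y motif, was found in 4 of the 8, including both collagen IV windows (37.4% of all windows). AGGTCA, a single half-site of retinoid receptors, whose elements pair such sites and allow other letters, was in 0 of 8 (16.3% of all). AGATAA, a motif of the zinc finger family that includes Gata6, was in 0 of 8 (11.2% of all). The core promoter motif TATAAA was in 0 of 8 (13.6% of all). A match is only a description of these letters in these windows.

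Over the 9 arrays, Col4a1 and Col4a2 had a root mean square log2 difference of 0.336 from each other. Each lay 0.168 from their common mean, which follows from taking that mean, so this value cannot be set beside those of other genes. The median non-member gene lay 0.960 from the mean. The other members lay between 0.717 (Hspg2) and 1.21 (Nid2) from that mean. Of 8241 non-member genes, the closest were Cox6a2 (0.285), a cytochrome c oxidase subunit, Meis2 (0.308), a homeobox factor, Slc1a5 (0.321), a neutral amino acid transporter, Clcn4 (0.331), a chloride transporter, and Crygd (0.334), a lens crystallin. Their RA arrays averaged between 1.76 (Crygd) and 2.51 (Slc1a5) as geometric means of the ratio.

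Nidogens link the laminin network to the collagen IV network. Nid1 had ratios of 1.16, 2.09 and 1.33 in RA cells and of 1.27, 1.72 and 1.65 in TSA cells, against 0.878, 1.08 and 1.04 in vehicle cells. All treated arrays lay above all vehicle arrays, by 0.55 on the log2 scale with RA (limma adjusted p = 0.424) and 0.60 with TSA (adjusted p = 0.240). The RA value was 0.30 without RA replicate 2. Nid2 had ratios of 0.996, 0.711 and 0.568 in RA cells and of 1.89, 1.78 and 1.34 in TSA cells, against 1.33, 1.06 and 0.611 in vehicle cells. Its TSA arrays lay above all RA and all vehicle arrays, while RA and vehicle arrays overlapped. The log2 change was -0.35 with RA (limma adjusted p = 0.722), 0.76 with TSA (adjusted p = 0.238) and -1.11 for RA against TSA (interval -1.84 to -0.38, adjusted p = 0.111). Without vehicle replicate 3, or without both arrays of high 18S signal, the TSA change was 0.46 (adjusted p = 0.389 and 0.331). With the replicate number as a block the difference between RA and TSA cells became a call (adjusted p = 0.0327).

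Agrn encodes agrin, a heparan sulfate proteoglycan that binds laminin, and both its probe sets rose with TSA. On 97921_at the ratios were 1.27, 1.36 and 1.51 in RA cells and 2.14, 2.29 and 2.05 in TSA cells, against 1.02, 0.872 and 1.11 in vehicle cells. On 104763_at they were 1.43, 1.72 and 1.56 in RA cells and 1.78, 2.13 and 1.93 in TSA cells, against 1.04, 1.09 and 0.871 in vehicle cells. On both probe sets the 3 groups did not overlap, with TSA highest, RA between and vehicle lowest. On 97921_at Agrn averaged 1.38 ± 0.121 in RA cells, 2.16 ± 0.119 in TSA cells and 1 ± 0.118 in vehicle cells (SD, n = 3 each), and on 104763_at 1.57 ± 0.147 in RA cells, 1.95 ± 0.179 in TSA cells and 1 ± 0.116 in vehicle cells. The log2 change with TSA was 1.08 on 97921_at (SE 0.18, limma adjusted p = 0.0164) and 0.93 on 104763_at (SE 0.18, adjusted p = 0.0320), which are 1.25 and 1.10 above the median of all probe sets. With RA it was 0.45 on 97921_at (limma adjusted p = 0.341) and 0.63 on 104763_at (adjusted p = 0.166).

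The Agrn call on 97921_at held in 12 of 18 alternatives and was lost without vehicle replicate 2 (limma adjusted p = 0.0736), TSA replicate 1 (0.0648), TSA replicate 2 (0.0903) or TSA replicate 3 (0.0566). The call on 104763_at held in 5 of 18 and was lost without any 1 array, with adjusted p between 0.0503 (without vehicle replicate 3) and 0.144 (without TSA replicate 2). Without both arrays of high 18S signal it was also lost (adjusted p = 0.0657), while that on 97921_at held (adjusted p = 0.0299). The difference between RA and TSA cells was -0.63 on 97921_at (interval -1.04 to -0.23, limma adjusted p = 0.0965) and -0.30 on 104763_at (adjusted p = 0.472). An Agrn window, chr4:156197439-156197738 on the minus strand in GRCm38.p6, held 12 matches to GGGCGG, the most of the 8 windows. The other Agrn window, chr4:156186210-156186509 on the same strand, held 2, and which start these cells use cannot be read from the arrays. The window with 12 matches is shown because Agrn held 2 of the 3 calls with TSA, and capitals mark GGGCGG or its reverse complement. Windows of Lama1, Lamc1 and Nid2 were not used here.

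Agrn: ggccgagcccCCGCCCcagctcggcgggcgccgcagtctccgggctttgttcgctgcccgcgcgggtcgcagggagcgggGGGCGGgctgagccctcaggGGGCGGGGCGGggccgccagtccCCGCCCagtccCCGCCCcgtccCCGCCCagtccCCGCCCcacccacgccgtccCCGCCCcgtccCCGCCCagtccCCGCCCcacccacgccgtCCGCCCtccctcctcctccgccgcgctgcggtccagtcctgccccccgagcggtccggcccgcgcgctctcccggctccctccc

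Hspg2 encodes perlecan, the other large heparan sulfate proteoglycan of the set. Its ratios were 2.22, 1.98 and 0.660 in RA cells and 1.20, 1.10 and 0.788 in TSA cells, against 1.39, 0.859 and 0.754 in vehicle cells. RA replicate 3 stood far below the other RA arrays, and the groups overlapped. The log2 change with RA was 0.55 (interval -0.48 to 1.57, limma adjusted p = 0.683), and it moved with single arrays. It was 1.08 without RA replicate 3 (adjusted p = 0.213), 0.24 without RA replicate 1 (adjusted p = 0.895), 0.32 without RA replicate 2 (adjusted p = 0.903) and 0.91 without both arrays of high 18S signal (adjusted p = 0.248). Sparc encodes a collagen-binding glycoprotein of the matrix. Its ratios were 1.06, 1.05 and 0.650 in RA cells and 0.662, 0.630 and 0.443 in TSA cells, against 1.45, 0.870 and 0.679 in vehicle cells. All Sparc TSA arrays lay below all vehicle arrays, by -0.69 on the log2 scale (interval -1.43 to 0.04, limma adjusted p = 0.282), and by -0.40 without vehicle replicate 1. With RA the Sparc change was -0.08 (adjusted p = 0.959), turning to 0.03 under quantile normalization and 0.08 under centring.

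**Figure D3:**
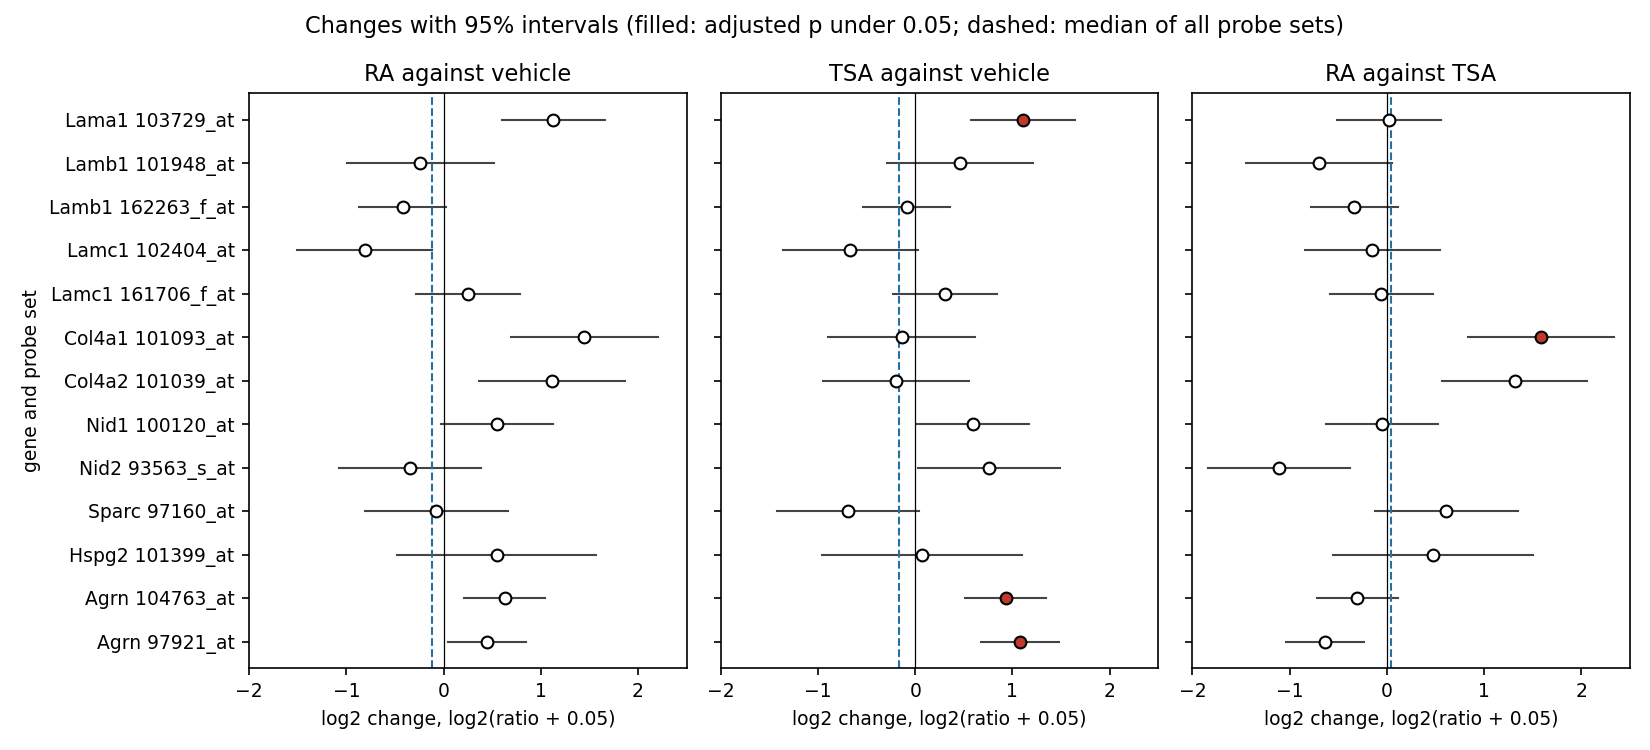
Log2 change with its 95% interval for each probe set in the 3 comparisons, RA against vehicle, TSA against vehicle and RA against TSA, from limma, with filled points for calls and a dashed line at the median of all probe sets. The calls are Lama1 and both Agrn probe sets for TSA against vehicle, and Col4a1 for RA against TSA.

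Counted by overlap, RA and vehicle arrays were fully separated for 8 of the 13 probe sets (17% of all probe sets), 6 of them higher in RA cells (5.93%) and 2 lower (11%). For TSA against vehicle 7 of 13 did not overlap (26.3% of all), 5 higher (9.26%) and 2 lower (17.1%). For RA against TSA 6 of 13 did not overlap (27.3%), 2 higher in RA cells (13.8%) and 4 lower (13.5%). The 2 higher were Col4a1 and Col4a2, and the 4 lower were Nid2, both Agrn probe sets and Lamb1 162263_f_at.

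Other chains and partners were counted in lists chosen by name. A gene was counted if any of its probe sets passed, so genes with several probe sets are favoured. Over all probe sets, calls were 0.934% higher and 0.427% lower with RA, and 2.21% higher and 1.27% lower with TSA. For RA against TSA they were 1.7% higher and 2.21% lower. Unadjusted limma p under 0.05 gave 4.64% and 8.03% with RA and 7.41% and 12.2% with TSA. These shares are per probe set, so gene counts cannot be set directly beside them. Of 9 measured genes for other laminin and collagen IV chains, 0 passed with RA against vehicle by limma (0 higher and 1 lower at an unadjusted p under 0.05). With TSA 1 was higher, Lama5, a laminin α chain of many adult basement membranes. At an unadjusted p under 0.05, 4 were higher with TSA and 0 lower. Of these, Lamb3 had 1.90 on 92759_at (limma adjusted p = 0.0555) and 0.09 on its other probe set. Lama4 had 1.28 on 104587_at (adjusted p = 0.0509) and -0.75 on its other probe set, and Lama3 had 0.98 (adjusted p = 0.132). Lama5 99931_at had ratios of 0.898, 1.04 and 0.936 in RA cells and of 2.11, 2.27 and 2.28 in TSA cells, against 1.19, 1.13 and 0.683 in vehicle cells. Its log2 change with TSA was 1.15 (limma adjusted p = 0.0344), while a second Lama5 probe set had -0.54. For RA against TSA, Lama5 (-1.17, adjusted p = 0.0279) and Lamb3, an epidermal laminin β chain (-2.29, adjusted p = 0.0263), were lower in RA cells. The Lama5 calls held in 2 and 3 of 9 fits that each left out 1 array, and the Lamb3 call in 5 of 9.

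Of 14 measured genes for other basement membrane matrix proteins, Fbln1, a fibulin that binds laminin and nidogen, rose with RA on 2 of its 4 probe sets, by 1.11 and 1.05 on the log2 scale (limma adjusted p = 0.0479 and 0.0392). The other Fbln1 probe sets had 0.92 (adjusted p = 0.0705) and -0.02 (adjusted p = 0.986). Tinagl1, a tubulointerstitial nephritis antigen-like matrix protein, rose with TSA by 3.87 (adjusted p = 0.00254). Its ratios were 1.64, 1.66 and 1.32 in RA cells and 10.7, 15.1 and 15.0 in TSA cells, against 0.496, 0.756 and 1.75 in vehicle cells, and the TSA arrays lay far above all others. The Tinagl1 call held without any 1 array, and the Fbln1 calls in 0 and 1 of 9 such fits. For RA against TSA, Fbln1 was higher on 2 probe sets (each held in 4 of 9) and Tinagl1 lower (-3.09, adjusted p = 0.00588, held in 9 of 9). Of 10 measured receptor genes, Sdc1, a syndecan, fell with RA by 2.04 (limma adjusted p = 0.0110, held in 7 of the 9 fits without 1 array), and Ddr1, a collagen receptor, rose with TSA by 1.27 (adjusted p = 0.0346, held in 1 of 9). Against TSA, RA cells were higher in Dag1, dystroglycan (0.88, adjusted p = 0.0305, held in 2 of 9), and lower in Ddr1 (held in 5 of 9) and Sdc1 (7 of 9).

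Collagen needs dedicated chaperones and hydroxylases before secretion, and 9 of 13 genes listed for these were measured. Serpinh1, a procollagen chaperone of the endoplasmic reticulum, rose with RA, with ratios of 2.38, 2.51 and 2.11 in RA cells and 0.990, 0.898 and 0.733 in TSA cells, against 1.12, 1.01 and 0.878 in vehicle cells. Every RA array lay above all others, by 1.18 against vehicle (limma adjusted p = 0.0246, held in 3 of 9) and by 1.37 against TSA (adjusted p = 0.00811, held in 9 of 9). Plod3, a lysyl hydroxylase, was higher in RA than in TSA cells by 0.95 (limma adjusted p = 0.0322, held in 3 of 9), and Ppib, a prolyl isomerase, fell with TSA by 0.89 (adjusted p = 0.0320, held in 1 of 9). The median log2 change of the list was 0.20 with RA, -0.24 with TSA and 0.59 for RA against TSA. Of 10 measured genes for matrix proteases and their inhibitors, Plat, tissue plasminogen activator, rose with RA by 2.56 (limma adjusted p = 0.0435, held in 2 of 9) and with TSA by 3.60 (adjusted p = 0.00783, held in 9 of 9).

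Markers of cell types moved in the same arrays, and their part in the results above was not tested. Of 13 measured parietal endoderm markers, 3 rose with RA, Gata6 (3.75, limma adjusted p = 0.000620, held in 9 of 9), Sox7 (1.21, adjusted p = 0.0392, held in 1 of 9) and Plat, and 2 rose with TSA, Krt19 (3.83, adjusted p = 0.00750, held in 9 of 9) and Plat. At an unadjusted p under 0.05, 5 of these genes had a probe set higher and 0 lower with RA, 6 higher and 2 lower with TSA, and 2 higher and 4 lower for RA against TSA. The list's median log2 change was 0.38 with RA, -0.06 with TSA and 0.00078 for RA against TSA. The mean log2 value of this list's 21 probe sets lay between 0.39 and 0.66 in RA cells, between 0.38 and 0.44 in TSA cells and between -0.41 and 0.41 in vehicle cells. Vehicle replicate 3 was the highest of the vehicle arrays for this list, for the visceral endoderm list (0.40) and for the fibroblast list (0.46). Among the basement membrane probe sets it was the highest vehicle array for Col4a1, Col4a2, Lama1, Lamc1 102404_at and Agrn 97921_at. It was the lowest for both Lamb1 probe sets, Lamc1 161706_f_at, Nid2, Sparc, Hspg2 and Agrn 104763_at. Of 9 measured visceral endoderm markers, 0 passed with RA or TSA against vehicle by limma. At an unadjusted p under 0.05 these were 1 higher and 1 lower with RA and 2 higher with TSA, and 1 marker, Apoe, was lower in RA than in TSA cells (-1.73, adjusted p = 0.0185, held in 5 of 9). Of 8 undifferentiated cell markers, 3 fell with RA, with log2 changes of -1.74 for Utf1, -2.37 for Tdgf1 and -1.69 for Zfp42, and 2 fell with TSA, with -1.34 for Utf1 and -1.53 for Tdgf1. Without 1 array these held in 3, 7 and 7 of 9 fits with RA and in 1 of 9 each with TSA. By unadjusted limma p under 0.05, 7 of the 8 genes had a probe set lower with RA and 6 with TSA, and 0 higher. For RA against TSA 1 was higher and 3 lower. The list's median log2 change was -0.84 with RA and -0.86 with TSA. Its mean log2 value lay between -0.12 and 0.15 in vehicle cells and between -0.84 and -0.62 in TSA cells. For this mean, every RA array lay below every TSA array. Between the treatments, RA cells were higher than TSA cells in Gata6 (4.37) and Sox7 (2.08) and lower in Krt19 (-2.68) and Zfp42 (-1.55), of which Krt19 held in 4 of 9 and the others in 9 of 9. Where a list gene had several probe sets, the value is that of a probe set that passed, and for Gata6, Krt19, Apoe, Col1a1, Col5a1, Sdc1, Dag1, Lamb3 and Plod3 at least 1 further probe set did not pass.

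Of 10 measured fibroblast and feeder markers, 4 rose with TSA, Col1a1 (4.31), Cnn1 (3.18), Thy1 (3.00) and Col5a1 (1.78), of which Thy1 held in 4 of 9 and the others in 9 of 9, and 0 passed with RA by limma (3 higher and 1 lower at an unadjusted p under 0.05). Set against TSA cells, RA cells were lower in 3, Col1a1 (-4.81), Thy1 (-4.35) and Cnn1 (-1.98), of which Cnn1 held in 4 of 9. The mean log2 value of the list lay between -0.22 and -0.16 in RA cells, between 0.65 and 0.97 in TSA cells and between -0.58 and 0.46 in vehicle cells. The TSA arrays, which carry the calls of Lama1 and Agrn, were also the highest for these markers. Lama1 averaged 2.26 in RA cells and 2.21 in TSA cells, so it was as high in RA cells, where this list was not raised. Agrn RA arrays lay above all vehicle arrays and below all TSA arrays on both its probe sets. The part of these markers in those calls was not tested. Since the values are ratios, whether a marker is expressed at all in vehicle cells cannot be read from them.

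**Figure D4:**
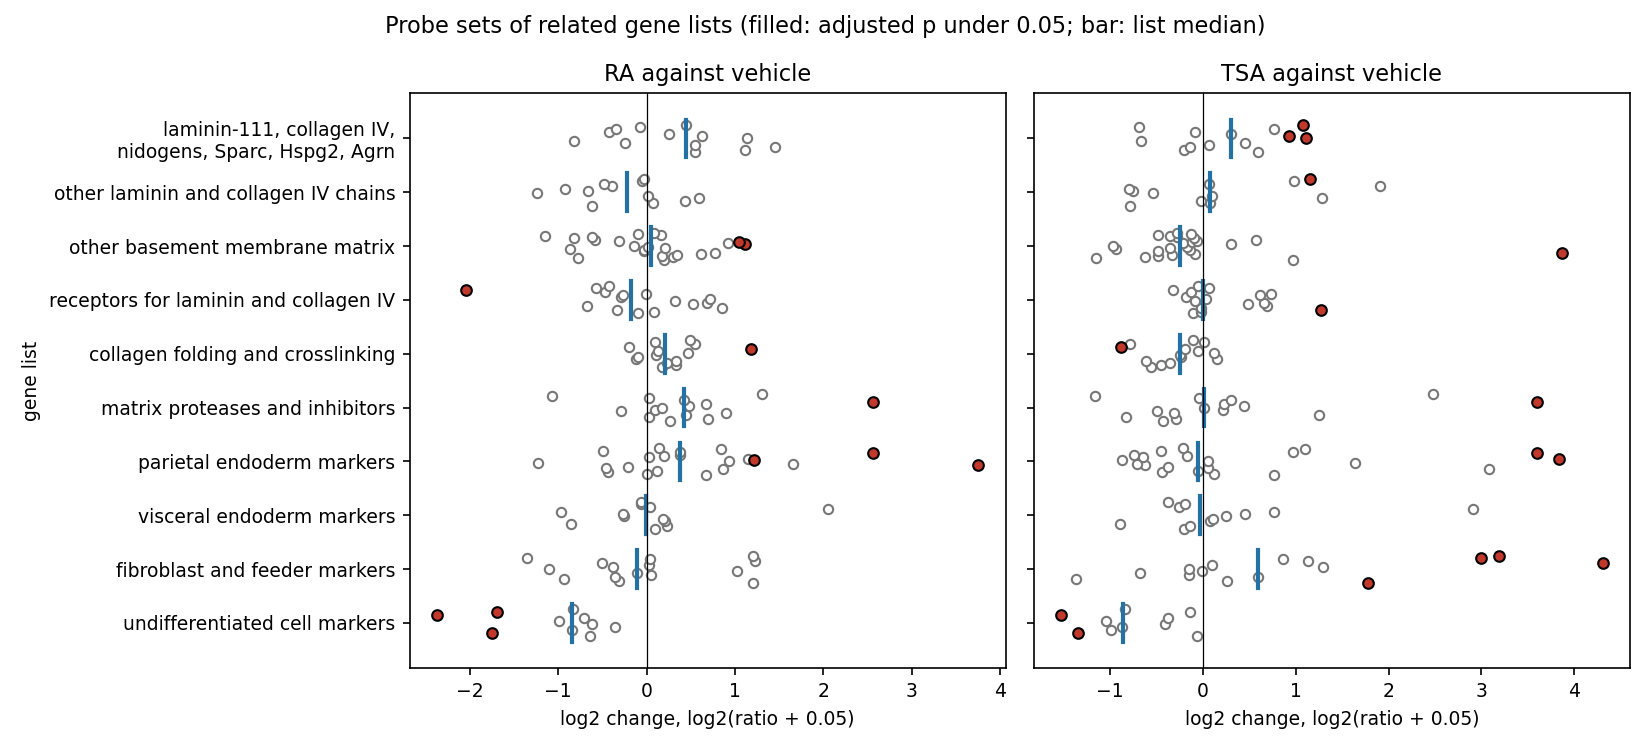
Log2 changes of the probe sets of each gene list for RA against vehicle (left) and TSA against vehicle (right), with filled points for adjusted p under 0.05 and a bar at each list's median. The collagen folding list has a median of 0.20 with RA and -0.24 with TSA.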

How the data were processed

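Per the labels' protocols, RNA was isolated with Tri-reagent, treated with DNase, purified on RNeasy columns and hybridised by a core facility to Affymetrix arrays, and GeneSpring is named for the vehicle samples. The authors deposited linear ratios of each probe set to its mean over the vehicle arrays, which average 1 to within 1.9e-07. How probe brightness was scaled, corrected for background or floored before the ratio was taken is not given in the sources used here, and signal over background cannot be seen from the ratios, so the precision rests on 3 arrays per group. Of 12488 probe sets 66 controls were left out of tests. Of the other 12422, the platform annotation gave 1 symbol for 10833, several for 396 and none for 1193, with symbols updated through RefSeq (GRCm38.p6). limma 3.58.1 in R 4.3.3 was fitted to log2(ratio + 0.05) on all 9 arrays without covariates (6 residual degrees of freedom), with Benjamini-Hochberg adjustment and a threshold of 0.05. The fit was also run on simulated data with independent noise and no part shared by replicate number. That run checked the code and is no support for the calls. Within-array differences were tested by exact two-sided permutation of 3 arrays against 3. Every probe set of the 10 genes was named. From each other list, up to 3 genes with the smallest adjusted p were named, and all where 5 or fewer passed, and the 5 genes closest to the collagen IV profile were named. The genes and lists were chosen with earlier results of these data known. Alternatives were pseudocounts of 0.01 and 0.1, quantile normalization, centring, a filter on the 30% lowest probe sets (by mean log2 ratio, so the change itself decides which stay), a variance trend, gene means, a fit on the arrays compared, the replicate number as a block, and leaving out arrays. Tables and plots used Python 3.11.15, pandas 2.3.3 and matplotlib 3.10.9.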

Additional observations from a re-analysis of the deposited data

How the results depend on the processing

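Every direction of the 4 called member results held under the alternatives run, and their calls did not hold in all of them. For RA against vehicle the count of changed probe sets is 0. It was 1 with centring, with the filter on the 30% lowest probe sets and with gene means (Lama1 each time), 1 without both arrays of highest 18S signal (Col4a2), and between 0 and 2 when 1 array was left out (2 without vehicle replicate 3, Col4a1 and Col4a2). Over all probe sets the calls were 169, and 185, 139, 150 genes and 98 under those settings, 61 on 6 arrays, 87 with quantile normalization, 98 higher and 13 lower with a variance trend, 37 without replicate 3 of every group and 54 to 209 with 1 array left out. For TSA against vehicle, where it is 3, it was 1 with quantile normalization, 0 in the fit on 6 arrays, 0 without replicate 3 of every group and between 0 and 2 with 1 array left out. Over all probe sets the calls were 432, and 108, 168 and 73 under those settings and 107 to 494 with 1 array left out. For RA against TSA, where it is 1, it was 0 with quantile normalization, 2 with the filter, 2 on 6 arrays, 2 without both 18S arrays (Col4a1 and Col4a2 each time), 0 without replicate 3 of every group and between 0 and 2 with 1 array left out. Over all probe sets the calls were 486, and 152, 493, 480, 434 and 119 under those settings and 167 to 624 with 1 array left out. The filter acts on ratios, so probe sets that were lower in treated cells fall out through that difference: lower calls went to 5 with RA, against 53 on all probe sets, and to 10 with TSA, against 158. Calls under the filter, Lama1 with RA and Col4a2 among them, are therefore no support, and the filter is left out of the numbers of alternatives in which a call held. With the replicate number as a block the counts were 0, 3 and 1, the last being Nid2 in place of Col4a1. Over all 12422 probe sets the calls with this block were 141, 438 and 455. Same-numbered arrays had deviations that correlated between -0.03 (RA 2 with TSA 2) and 0.29 (vehicle 3 with RA 3). Replicate 3 correlated at 0.29 between vehicle and RA, 0.24 between vehicle and TSA and 0.19 between RA and TSA. Differently numbered arrays lay between -0.30 (vehicle 3 with RA 1) and 0.17 (vehicle 1 with TSA 2). Not all same-numbered pairs were over 0.1 and the labels do not explain the numbers, so the main fit does not pair the samples. A part shared by the replicate 3 arrays is left in its spread. The block changed no other member call. The values that changed sign had a size of at most 0.25 with all arrays. For Lama1, RA against TSA, the log2 change was -0.020 with centring, -0.11 without the 18S arrays, -0.0051 without replicate 3 of every group and -0.11 to 0.18 with 1 array left out. For Lamb1 162263_f_at with TSA it was 0.062 with quantile normalization, 0.11 with centring and -0.20 to 0.0047 with 1 array left out, and for Lamb1 101948_at with RA -0.48 to 0.0055. For Lamc1 161706_f_at with RA it was -0.000404 without the 18S arrays or replicate 3 of every group, and RA against TSA gave -0.12 to 0.051 with 1 array left out, and -0.38 to 0.10 on 102404_at. Col4a1 with TSA gave 0.11 (quantile), 0.061 (centring), 0.16 (no 18S arrays), 0.24 (no replicate 3) and -0.48 to 0.16 (1 array left out). Col4a2 with TSA gave 0.021, 0.21 and 0.15 under quantile normalization, no 18S arrays and no replicate 3, and -0.48 to 0.21 with 1 array left out. Nid1, RA against TSA, gave 0.00314, 0.022 and 0.072 under the same settings and -0.29 to 0.12. Sparc with RA gave 0.028 (quantile), 0.080 (centring) and -0.31 to 0.21. Hspg2 with TSA gave -0.10 without the 18S arrays and -0.10 to 0.32. Within arrays, Lamb1 minus Lamc1, RA against vehicle, gave 0.58 without probe sets that have f in their suffix and -0.26 to 0.086 with 1 array left out, Col4a1 minus Col4a2, TSA against vehicle, gave -0.052 without the 18S arrays and -0.052 to 0.24, and Lama1 minus Lamc1, RA against TSA, gave -0.070 to 0.34. The cause of these changes was not tested. Leaving out replicate 3 of every group and the f probe sets were chosen after seeing the data. The filter left out Lamc1 102404_at and Sparc. Array weights did not settle on stable values and are not reported. Having 3 arrays per group limits what can be called.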

Other observations

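Arrays with the same replicate number shared some extremes. Replicate 3 was the lowest array in RA, in TSA and in vehicle cells for 4 of the 13 basement membrane probe sets, those of Hspg2, Nid2 and Sparc and 101948_at of Lamb1, where 1534 of 12422 probe sets (12.3%) showed this. Replicate 3 was the highest in all 3 groups for Lama1 (12.2% of all probe sets), and replicate 1 was the lowest in all 3 for Nid1 (4.85% of all). The median SD of log2 values among the arrays of a group was 0.33 for these probe sets in RA cells, 0.23 in TSA cells and 0.36 in vehicle cells, beside 0.31, 0.26 and 0.41 over all probe sets in RA, TSA and vehicle cells.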
